A study of Mus musculus with 8 samples.

Results

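Of the 32285 features counted in the libraries, 10 genes were followed: Hoxa5, Hoxa7, Hoxa9 and Hoxa10 of the HoxA cluster, Hoxb2, Hoxb3, Hoxb4, Hoxb5 and Hoxb6 of the HoxB cluster, and Meis1. They were chosen by name, and their raw counts of unique molecular identifiers (UMIs, each standing for 1 captured transcript) were read in every library. Lineage-c-Kit+ bone marrow cells, the fraction in which stem and progenitor cells (HSPC) are found, came from Wild-type mice and were profiled by 3′ single-cell RNA-seq in 8 libraries of 1 mouse each. Each age was represented by 1 male and 1 female: young at 14 weeks, middle-aged at 50 weeks, old at 78 weeks (male) or 79 weeks (female), and very old at 95 weeks. The old and very old mice together are called older below. The labels number the very old libraries in another series than the other 6, so an age of 95 weeks and the library series cannot be told apart. The labels name no treatment and no engineered allele, and nothing in them links mice by litter or day.

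Hox genes encode homeodomain transcription factors that lie in clusters and are read out in order along the cluster during embryonic patterning. In blood, HoxA and HoxB genes are transcribed in stem cells and early progenitors and are shut down during differentiation. Their proteins bind DNA together with partners of the TALE family, namely Pbx proteins and Meis1, which pairs with Pbx and with posterior Hox proteins such as Hoxa9. Hoxa9 and Meis1 are known for sustaining progenitor self-renewal and for their part in acute myeloid leukaemia. Hoxb4 is known for expanding haematopoietic stem cells (HSC) when overexpressed, and Hoxb5 has served as a reporter gene for long-term HSC.

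In the GRCm38 annotation the HoxA members lie on the minus strand of chromosome 6, from Hoxa5 (chr6:52201754-52204587) to Hoxa10 (chr6:52231197-52240854), with Hoxa7 and Hoxa9 between them. The HoxB members lie on the plus strand of chromosome 11, from Hoxb6 (chr11:96292476-96301569) through Hoxb5, Hoxb4 and Hoxb3 to Hoxb2 (chr11:96350525-96354012). Meis1 lies far from the HoxB cluster on the minus strand of the same chromosome (chr11:18879817-19018985). No member shares exon bases with a gene on its own strand. On the opposite strand, exons of Hoxb2 and Hoxb3 overlap Hoxb3os, those of Hoxb5 overlap Hoxb5os, those of Hoxa7 overlap Hoxaas3 and those of Meis1 overlap Gm16140. Whether counting used strand is not given in the sources used here, and without strand the reads of such a pair cannot be told apart.

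RefSeq promoter windows (250 bases before to 50 bases after a start site, GRCm38.p6) were found for 6 of the 10 members, with none for Hoxb2, Hoxb3, Hoxb5 and Hoxb6. Those of Hoxb4 (chr11:96318017-96318316, plus strand), Meis1 (chr11:19018920-19019219, minus strand) and Hoxa9 (chr6:52227321-52227620, minus strand) are shown, because Hoxb4 and Meis1 rose in older HSC-like cells whereas Hoxa9 lay lower there. Capitals mark matches on either strand to TGACAG (Meis and Pknox), TGATTNAT (Hox with Pbx), CACGTG (Usf factors), CCAAT (NF-Y), GGGCGG (Sp1) or TAAT (the homeodomain core). No 2 matches overlap in these windows.
Hoxb4: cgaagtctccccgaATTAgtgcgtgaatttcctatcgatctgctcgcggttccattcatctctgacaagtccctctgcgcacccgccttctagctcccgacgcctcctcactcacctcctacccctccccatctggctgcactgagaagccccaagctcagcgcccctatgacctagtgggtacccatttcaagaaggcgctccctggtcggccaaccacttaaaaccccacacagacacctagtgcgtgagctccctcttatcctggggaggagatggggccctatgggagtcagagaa
Meis1: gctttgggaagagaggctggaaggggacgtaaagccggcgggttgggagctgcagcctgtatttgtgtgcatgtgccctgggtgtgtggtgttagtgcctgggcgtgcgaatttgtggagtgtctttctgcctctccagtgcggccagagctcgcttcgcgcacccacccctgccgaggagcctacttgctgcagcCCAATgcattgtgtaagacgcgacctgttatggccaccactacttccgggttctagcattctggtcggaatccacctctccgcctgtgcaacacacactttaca
Hoxa9: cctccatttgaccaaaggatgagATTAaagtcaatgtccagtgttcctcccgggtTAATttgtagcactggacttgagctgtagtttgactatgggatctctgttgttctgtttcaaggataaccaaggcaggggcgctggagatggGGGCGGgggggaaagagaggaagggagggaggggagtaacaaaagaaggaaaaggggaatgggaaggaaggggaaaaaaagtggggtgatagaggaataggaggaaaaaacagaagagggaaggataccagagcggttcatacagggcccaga
The Hoxb4 window held 1 match to TAAT, at -236 from the start site. The Meis1 window held 1 match to CCAAT, at -54. The Hoxa9 window held 1 match to GGGCGG, at -103, and 2 matches to TAAT, at -227 and -195. None of the windows of the 6 members held the Meis and Pknox, the Hox with Pbx or the Usf motif. Of the 32851 mouse promoter windows of this length, 19.2% held TGACAG, 3.22% held TGATTNAT and 7.15% held CACGTG. The CCAAT motif was found in 37.4% of them, GGGCGG in 35.7% and TAAT in 58.0%. A match describes the letters of a window and is not a bound site.

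Each library held 83062003 to 150135029 UMIs, and 59136 cells had 200 or more detected genes. In all, 467 barcodes occurred in more than 1 library. Cells were clustered with every Hox, Meis, Pbx and Pknox gene left out of the genes used, and clusters were named from marker lists. The cluster called HSC-like (4486 cells, 366 to 827 per mouse) was led by Sult1a1, Nupr1, Procr, Ly6a and Ltb, and 9 of the 17 HSC markers were among its leading 50 genes. Levels are given as CPM, the UMIs of a gene divided by all UMIs of the cells summed and put on the counts-per-million scale. They lack the TMM scaling between libraries that the fits use, so a ratio of CPM can differ from a fitted fold change. The HSC-like cluster made up 4.97% and 5.18% of the cells of the young mice, 6.18% and 8.78% in the middle-aged mice and 6.53% to 12.4% in the older mice. Marker lists of other cells summed in it to 1271 to 2185 CPM for granulocyte progenitors, 655 to 1098 for erythroid and 320 to 579 for dendritic cells, and to at most 1.77 for mature B cells and 1.01 for T and NK cells.

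The members were concentrated at the stem-cell end of the hierarchy, but they did not all peak in the same cells. Levels are CPM of a cell class summed per mouse, with mean ± SD over n = 8 mice. Each gene is compared between classes and not with another gene, because 3′ tag counts are not a per-length measure. These are descriptions without a test. Hoxa5, Hoxa10 and all 5 HoxB members were highest in HSC-like cells. Hoxa7 and Hoxa9 were highest in an unnamed cluster (number 18) led by Dntt, Wfdc17, Flt3 and Satb1, and Meis1 was highest in an unnamed cluster of low depth (number 12) led by Itga2b.

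**Figure D1:**
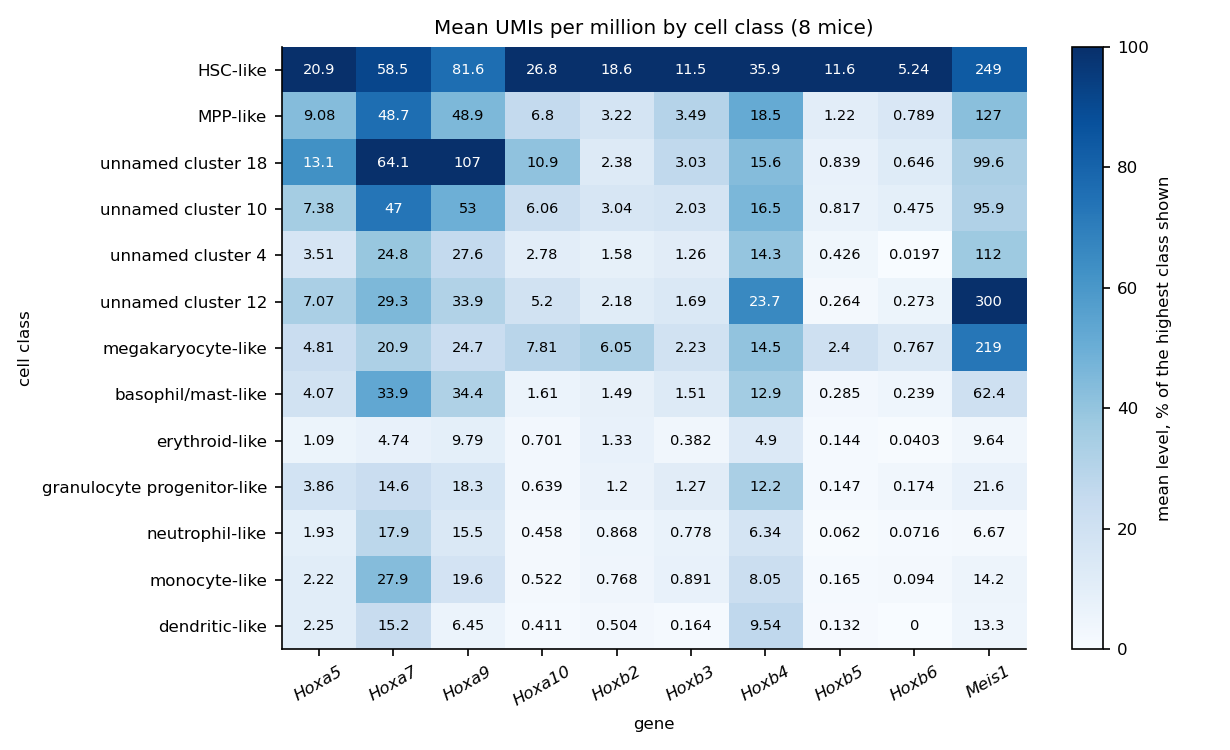
Mean level of each member (columns) in the cell classes (rows) over 8 mice. Printed values are CPM and the shade gives the percentage of the highest class shown, so the top row is darkest for Hoxa5, Hoxa10 and the 5 HoxB members, cluster 18 for Hoxa7 and Hoxa9, and cluster 12 for Meis1. The smallest unnamed clusters are not drawn.

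Among HoxA members, Hoxa10, the most posterior of them, was the most restricted to HSC-like cells. It stood at 26.8 ± 5.84 in HSC-like cells, 10.9 ± 2.39 in cluster 18 and 7.81 ± 2.15 in megakaryocyte-like cells, and the HSC-like values lay above every value of cluster 18 in 8 of 8 mice. Hoxa5, which favours myeloid over erythroid output when overexpressed, fell off more gradually, from 20.9 ± 3.16 in HSC-like cells through 13.1 ± 3.55 in cluster 18 to 9.08 ± 1.86 in cells resembling multipotent progenitors (MPP-like). HSC-like cells exceeded cluster 18 in 8 of 8 mice for Hoxa5, although the ranges overlapped. Hoxa7, often expressed together with Hoxa9 in leukaemia, differed little at the top, with 64.1 ± 5.77 in cluster 18, 58.5 ± 5.03 in HSC-like and 48.7 ± 2.56 in MPP-like cells. The order of the first pair held for Hoxa7 in 7 of 8 mice with overlapping ranges, while HSC-like and MPP-like ranges did not overlap. Hoxa9, the member most tied to leukaemia, reached 107 ± 22.3 in cluster 18 and 81.6 ± 15.5 in HSC-like cells, in that order in 8 of 8 mice with overlapping ranges. In MPP-like cells Hoxa9 stood at 48.9 ± 5.57, below every HSC-like value.

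Of the HoxB members, Hoxb5, Hoxb6 and Hoxb2 fell off most steeply from HSC-like to MPP-like cells. Hoxb5 stood at 11.6 ± 5.94 there, against 2.40 ± 1.25 in megakaryocyte-like and 1.22 ± 0.566 in MPP-like cells. Hoxb6, the neighbour of Hoxb5 that can expand myeloid precursors when overexpressed, stood at 5.24 ± 3.33 in HSC-like and 0.789 ± 0.420 in MPP-like cells. Hoxb2 stood at 18.6 ± 8.30 in HSC-like, 6.05 ± 2.30 in megakaryocyte-like and 3.22 ± 1.46 in MPP-like cells. These large SDs go with the differences between ages given below. The class ranked next for Hoxb5 was an unnamed cluster of 570 cells of low depth (number 21), at 5.55 ± 6.86, with overlapping ranges. Hoxb3, which impairs lymphoid development when overexpressed, stood at 11.5 ± 3.12 in HSC-like cells, 8.58 ± 12.1 in cluster 21 and 3.49 ± 0.841 in MPP-like cells, and HSC-like cells exceeded cluster 21 in 6 of 8 mice. Hoxb4 fell off least of the HoxB members from HSC-like to MPP-like cells, at 35.9 ± 7.28 in HSC-like cells, 23.7 ± 8.59 in cluster 12, 21.5 ± 10.3 in cluster 21, 18.5 ± 5.93 in MPP-like, 14.5 ± 1.91 in megakaryocyte-like and 12.9 ± 2.78 in basophil/mast-like cells.

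Meis1, the TALE partner, followed the HSC and megakaryocyte branches. It stood at 300 ± 35.6 in cluster 12, 249 ± 28.0 in HSC-like and 219 ± 11.4 in megakaryocyte-like cells, and then at 127 ± 16.8 in MPP-like cells. Megakaryocyte-like values of Meis1 lay above every MPP-like value, whereas the ranges of HSC-like and megakaryocyte-like cells overlapped. At the other end, Meis1 was at 14.2 ± 3.25 in monocyte-like, 9.64 ± 3.78 in erythroid-like and 6.67 ± 2.20 in neutrophil-like cells. The HoxA pair Hoxa7 and Hoxa9 kept a measurable level in monocyte-like cells, at 27.9 ± 3.86 and 19.6 ± 3.25. Hoxb5 and Hoxb6 stood at 0.165 ± 0.131 and 0.0940 ± 0.0741 there.

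Within HSC-like cells the members were detected in unequal shares of cells. Cells were thinned to 4500 UMIs each so that depth was equal, which kept 4079 of the 4486 cells. Meis1 was detected in 65.0% of HSC-like cells (mean of 8 mice, 82.3% before thinning) and in 2.66% of neutrophil-like cells, taken as a class that should hold little of it. The leading 50 genes of the neutrophil-like class held 7 granulocyte progenitor markers and 5 neutrophil markers, so it cannot be read as neutrophils alone. Hoxa9 was found in 29.6% of HSC-like cells (45.4% before thinning) and 6.28% of neutrophil-like cells. Hoxa7 was found in 22.1% (36.8% before thinning) and 7.64%. Both HoxA genes thus had a larger share in neutrophil-like cells than the other members. Hoxb4 was found in 14.9% of HSC-like cells, Hoxa10 in 10.9%, Hoxa5 in 8.64%, Hoxb2 in 7.63%, Hoxb5 in 4.99%, Hoxb3 in 4.88% and Hoxb6 in 2.62%. Their shares in neutrophil-like cells ran from 0 of 2730 thinned cells for Hoxb5 and Hoxb6, which allows up to 0.110% of cells with a UMI at this depth, to 2.62% for Hoxb4. Before thinning, 0.121% and 0.146% of neutrophil-like cells held a UMI of Hoxb5 and Hoxb6. Intervals and limits cover counting error only.

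A thinned HSC-like cell held UMIs of 1.74 of the 10 members on average, against 0.954 in MPP-like cells. Thinning kept 5650 of the 9002 MPP-like cells, a smaller part than of HSC-like cells. An MPP-like cluster of 3428 cells had a median of 2584 UMIs, below the thinning depth, so the MPP-like figures describe the deeper cells of that class. Of the HSC-like cells 10.5% had none of the members (6.07% to 14.1% by mouse), 22.3% had 3 or more and 69.1% had any of the 9 Hox members. In MPP-like cells 34.7% had none, 5.03% had 3 or more and 45.2% had any Hox member. The largest number of members in 1 thinned HSC-like cell was 7.

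The main comparison asked whether the members changed with age in HSC-like cells. Of the 10 members 6 were higher in the 4 older than in the 2 young mice by edgeR's quasi-likelihood test on counts summed per mouse, with Benjamini-Hochberg adjustment over 11631 genes and a threshold of 0.05. They were Hoxb2, Hoxb3, Hoxb4, Hoxb5, Hoxb6 and Meis1. Of all genes tested 6.78% were called higher and 2.98% lower, and no member was called lower. The median log2 fold change was 0.55 for the members and -0.01 for all genes tested. All 4 older mice lay above both young mice for the 5 HoxB members, a pattern shown by 10.7% of all genes tested. This share was computed for HSC-like cells only, so separations of young from older mice in other classes have no such background. The HoxA members were not called in either direction.

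**Figure D2:**
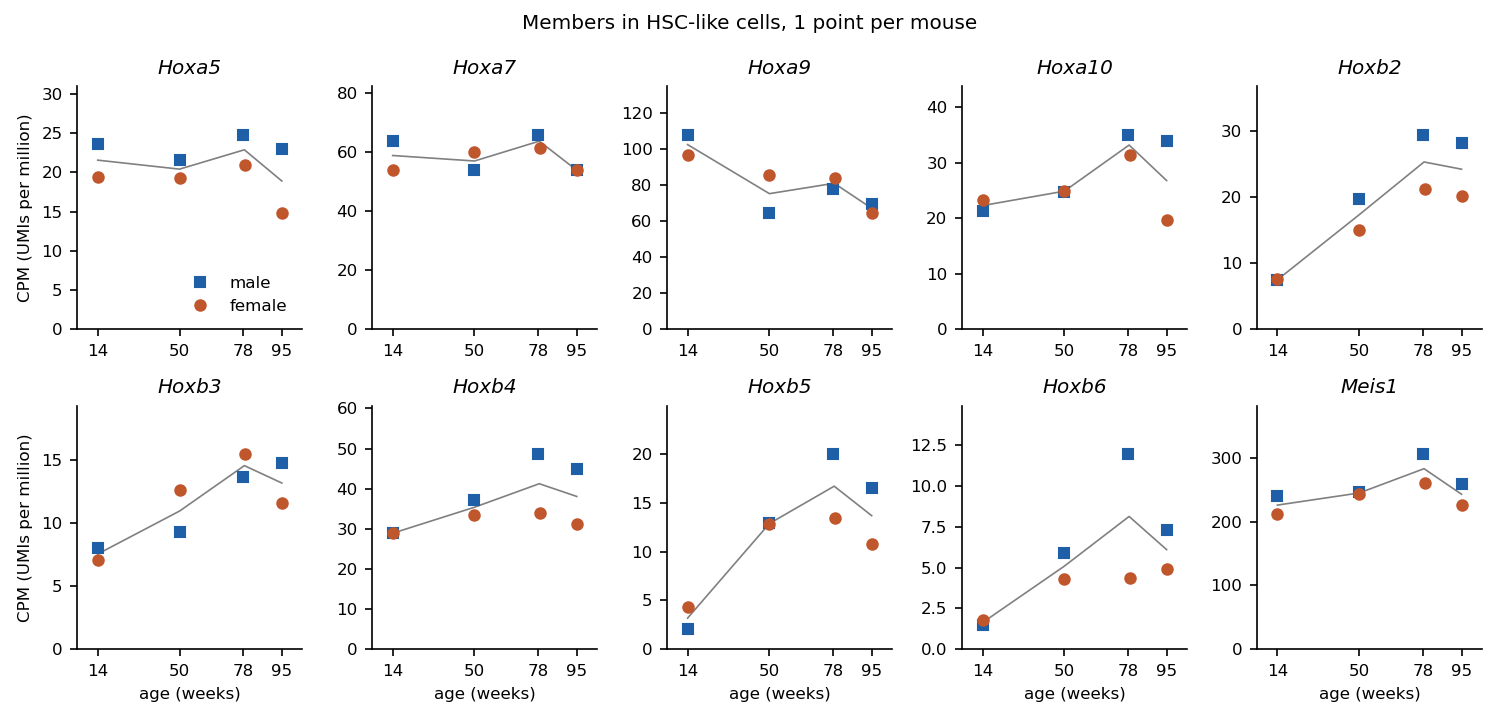
Level of each member in HSC-like cells (vertical axis, CPM) against age in weeks (horizontal axis), with 1 point per mouse, the sexes marked separately and a line through the mean of each age group. The young mice at 14 weeks are the lowest points for Hoxb2, Hoxb3, Hoxb4, Hoxb5 and Hoxb6 and the highest points for Hoxa9.

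Hoxb5 showed the largest difference. It was at 2.07 CPM (7 UMIs) and 4.30 CPM (17 UMIs) in the young male and female, 12.98 and 12.8 in the middle-aged mice, 19.99 and 13.5 in the old mice and 16.6 and 10.8 in the very old mice. Every middle-aged and older mouse was above both young mice. Older exceeded young mice by 2.32 ± 0.31 on the log2 scale (SE, edgeR adjusted p = 0.000898). As a ratio of summed counts this was 4.86, with a 95% counting interval of 3.21 to 7.70.

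Hoxb2, the most 3′ member of the HoxB cluster studied here, was at 7.39 and 7.58 CPM in the young male and female. It was at 19.7 and 14.96 in the middle-aged, 29.4 and 21.2 in the old and 28.3 and 20.2 in the very old mice. The young mice stood apart from all others, and each male exceeded the female of its age from 50 weeks on. The difference between older and young mice was 1.82 ± 0.19 (log2, SE, edgeR adjusted p = 0.000147).

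Hoxb6 was sparse, with 5 and 7 UMIs in the young mice, or 1.48 and 1.77 CPM. It was at 5.90 and 4.27 in the middle-aged, 11.9 and 4.33 in the old and 7.28 and 4.92 in the very old mice. The old male was the highest, but the remaining older mice also lay above both young mice. The difference was 2.17 ± 0.41 (log2, SE, edgeR adjusted p = 0.00657).

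Hoxb3 was at 7.98 and 7.08 CPM in the young, 9.27 and 12.6 in the middle-aged, 13.6 and 15.4 in the old and 14.7 and 11.6 in the very old mice. The older mice lay above the young ones without overlap, by 1.0 ± 0.22 (log2, SE, edgeR adjusted p = 0.0148). Hoxb4, which promotes HSC expansion when forced, was at 29.0 and 28.8 in the young, 37.3 and 33.5 in the middle-aged, 48.5 and 33.9 in the old and 44.8 and 31.3 in the very old mice. Older males held more Hoxb4 than older females, and the older females were only just above the young mice. The difference was 0.56 ± 0.14 (log2, SE, edgeR adjusted p = 0.0303).

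Meis1 was at 241 and 211 CPM in the young, 247 and 243 in the middle-aged, 306 and 261 in the old and 260 and 226 in the very old mice. The very old female lay below the young male, so the groups overlapped. The difference was called but small, at 0.34 ± 0.09 (log2, SE, edgeR adjusted p = 0.0348).

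Hoxa9 took the other direction. It was at 108 and 97.1 CPM in the young male and female, 64.7 and 85.9 in the middle-aged, 78.0 and 84.2 in the old and 69.7 and 64.7 in the very old mice. All 6 middle-aged and older mice were below both young mice, and 26.6% of all genes tested had all 4 older mice below both young ones. The fitted difference was -0.35 ± 0.12 (log2, SE) with an unadjusted p of 0.0123 and an edgeR adjusted p of 0.0890, which did not pass the threshold. Of the 11631 genes tested, 2848 had an unadjusted edgeR p under 0.05.

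Of the other HoxA members, Hoxa10 was at 21.3 and 23.3 CPM in the young and 24.8 and 24.9 in the middle-aged mice. It was at 35.0 and 31.3 in the old and 33.8 and 19.7 in the very old mice. The very old female was below both young mice and the remaining older mice were above them, and the difference of 0.53 ± 0.18 (log2, SE) had an edgeR adjusted p of 0.0903. Hoxa5 ranged from 14.8 to 24.8 over the 8 mice and Hoxa7 from 53.9 to 66.0, with overlapping groups. Their differences were 0.07 ± 0.15 and 0.12 ± 0.11 (log2, SE), with edgeR adjusted p-values of 0.845 and 0.577.

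**Figure D3:**
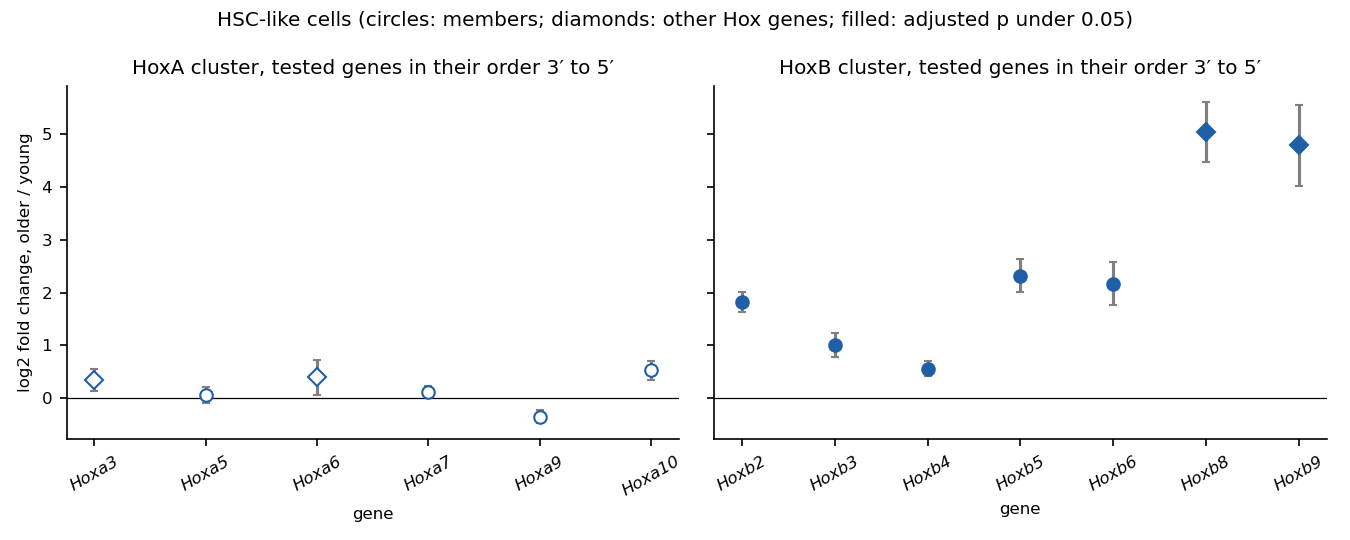
Log2 fold change between older and young mice in HSC-like cells (vertical axis, ± SE) for the tested genes of the HoxA (left) and HoxB (right) clusters in order along the cluster. Circles are members, diamonds other Hox genes, and filled symbols passed an adjusted p of 0.05; all tested HoxB genes are filled and lie above 0, while no HoxA gene is filled. Fold changes of Hoxb8 and Hoxb9 depend on the few young UMIs.

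For 3 of the 10 members, Hoxb2, Hoxb5 and Hoxa9, the share of cells with a UMI is given by age, and it moved the same way as their levels. After thinning, Hoxb2 was found in 3.02% and 3.70% of young HSC-like cells by mouse and in 8.90% to 12.1% of older ones. Hoxb5 was found in 0.906% and 2.47% of young and 3.71% to 8.64% of older cells. Hoxa9 was found in 36.3% and 36.9% of young and 24.2% to 31.5% of older cells. For all 3 genes the young and older ranges did not overlap, and the share of all genes with such a separation was not computed. The share of cells with any Hox member did overlap, at 65.6% and 67.7% in the young and 62.9% to 76.0% in the older mice.

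At 50 weeks 2 members were called. Hoxb2 (1.26 ± 0.21, log2, SE, edgeR adjusted p = 0.0125) and Hoxb5 (2.02 ± 0.35, edgeR adjusted p = 0.0132) were higher in the 2 middle-aged than in the 2 young mice, in a comparison where 1.13% of all genes were called higher. Hoxb6 was at 1.66 ± 0.47 with an adjusted p of 0.122 and Hoxa9 at -0.39 ± 0.14 with 0.223, both short of the threshold. No member was called at 50 weeks without a sex term, with only the groups compared, without Harmony correction or without the young male, and 1, Hoxb5, was called without the middle-aged male. Old and very old mice were also set apart. Against the same young mice, old mice alone gave 6 members called higher (5.51% of all genes) and very old mice alone gave 4 (5% of all genes), which were Hoxb2, Hoxb3, Hoxb5 and Hoxb6. For Hoxb2 the difference was 1.82 in old and 1.83 in very old mice, and for Hoxb5 it was 2.42 and 2.21. The old and the young libraries belong to the same library series. These comparisons share the young mice.

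The result rests on which cells are taken as HSC-like and on 2 young mice. Without Harmony correction between libraries, the HSC-like cluster held 47 and 57 young cells against 259 to 715 in each older mouse, and no member was called. In that set Hoxb2 was at 18.7 and 21.6 CPM in the young and 30.02 to 33.5 in the older mice (0.76, edgeR adjusted p = 0.442). Hoxb5 was at 5.34 and 24.0 in the young and 17.8 to 23.6 in the older mice (0.59, adjusted p = 0.731). DESeq2 called 3 members, Hoxb2, Hoxb5 and Hoxb6. Without the young male 2 members were called, Hoxb2 (1.57, adjusted p = 0.0148) and Hoxb5 (1.70, adjusted p = 0.0442). Over 24 other fits of the HSC-like comparison, Hoxb2 and Hoxb5 were called in 23 each, Hoxb3 in 16, Hoxb4 in 11 and Meis1 in 9. Hoxb6 was called in 21 of the 23 fits that tested it, Hoxa9 in 4 and Hoxa10 in 3.

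HSC markers and MPP markers moved with age in the same cells. The 17 HSC markers, none at 0 in all mice, summed to 2346 and 2499 CPM in the young, 2802 and 4030 in the middle-aged and 3074 to 4504 in the older mice. The 9 MPP markers summed to 2248 and 2833 in the young, 1497 and 1733 in the middle-aged and 1011 to 1621 in the older mice. By gene, 14 of the 17 HSC markers were called higher in older mice and none lower, with a median log2 fold change of 1.21. Markers of other cells also moved without overlap between young and older mice. Those of erythro-megakaryocyte precursors summed to 297 and 308 in the young and 384 to 460 in the older mice, those of megakaryocytes (1 of 10 at 0 in all mice) to 173 and 213 against 228 to 319, and those of dendritic cells (1 of 10 at 0) to 320 and 466 against 514 to 561.95. Lymphoid markers were lower, at 88.0 and 101 in the young against 40.4 to 53.2 in the older mice, and so were monocyte markers, at 129 and 206 against 80.4 to 118. Among HSC-like cells of 4500 or more UMIs with 3 or more HSC markers detected after thinning, 4 members were called where 6.13% of all genes were called higher, Hoxb2, Hoxb3, Hoxb5 and Hoxb6, with log2 differences of 1.73 for Hoxb2 and 2.23 for Hoxb5. The part of these markers' changes in the HoxB differences was not tested.

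At a finer clustering (resolution 1.6) HSC-like cells fell into 2 clusters, and the HoxB difference was measured in each. In the smaller one, led by Sult1a1 and Nupr1 (2259 cells), Hoxb5 was at 2.05 and 8.11 CPM in the young, 24.4 and 23.4 in the middle-aged and 17.97 to 26.9 in the older mice. In the larger one, led by Myl10 and Ltb (2320 cells), Hoxb5 was at 1.98 and 0.884 in the young, 4.42 and 5.85 in the middle-aged and 4.69 to 9.40 in the older mice. The young mice lay below all others in both. Hoxb2 was called in both clusters (1.62 in the smaller, adjusted p = 2.04e-05, and 1.93 in the larger, adjusted p = 0.00909), and so was Hoxb5 (2.21, adjusted p = 7.6e-05, and 2.29, adjusted p = 0.0406). The smaller cluster gave 6 members called, where 8.76% of all genes were called higher. They were Hoxa10, Hoxb2, Hoxb3, Hoxb4, Hoxb5 and Hoxb6. The larger cluster gave 2, where 1.96% of all genes were called higher, and the difference between the clusters was not tested. Meis1 was called in neither.

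Among HSC-like cells of 4500 or more UMIs, those with a UMI of Vwf after thinning, a marker of platelet-biased HSC, held more Hoxb5 (33.2 ± 11.6 against 9.57 ± 5.18 CPM, higher in 8 of 8 mice) and less Hoxa9 (63.1 ± 10.7 against 83.6 ± 15.4, lower in 8 of 8 mice) than those without one. The young mice had 4 and 8 cells with a Vwf UMI, too few to fit, and their Hoxb5 values there, 55.3 and 45.7 CPM from 2 and 3 UMIs, were above the 22.8 to 30.1 of the older mice. With only cells of 4500 or more UMIs without a Vwf UMI, which changes depth and Vwf together, Hoxb2, Hoxb3, Hoxb5 and Hoxb6 were called higher in older mice (4.82% of all genes), with log2 differences of 1.73 for Hoxb2 and 2.41 for Hoxb5.

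**Figure D4:**
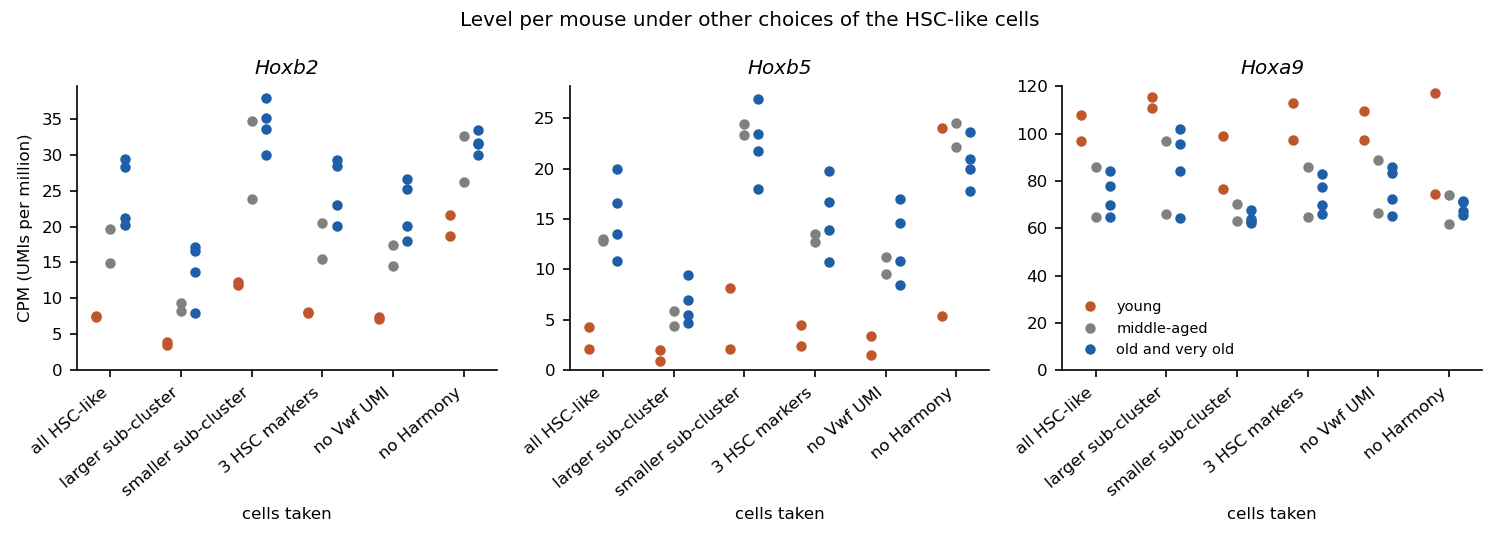
Level of Hoxb2, Hoxb5 and Hoxa9 (vertical axis, CPM, 1 point per mouse, coloured by age group) for 6 ways of choosing HSC-like cells (horizontal axis), of which the sets by HSC markers and by Vwf hold only cells of 4500 or more UMIs. Young points lie below older points for Hoxb2 in every set and for Hoxb5 in every set but that without Harmony correction, where 1 young mouse is at 24.0.

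MPP-like cells (9002 cells) repeated the Hoxb2 and Hoxb5 differences at lower levels. Hoxb2 was at 1.20 and 1.26 CPM in the young, 3.29 and 4.50 in the middle-aged, 3.32 and 2.76 in the old and 5.25 and 4.20 in the very old mice. Every middle-aged and older mouse was above both young mice. It rose by 1.64 ± 0.30 (log2, SE, edgeR adjusted p = 0.0146). Hoxb5 rested on few counts, with 4 UMIs in each young mouse and 11 to 17 in each older mouse, or 0.342 and 0.389 against 1.37 to 1.82 CPM. The groups did not overlap and the difference was 2.11 ± 0.45 (log2, SE, edgeR adjusted p = 0.0420). These 2 of 10 members were called where 0.907% of 12133 genes were called higher. Hoxb4 (0.80, adjusted p = 0.0615), Hoxb6 (2.22, adjusted p = 0.155) and Meis1 (0.35, adjusted p = 0.137) did not pass. No member was called with age in weeks as the term, where 13 of 12133 genes were called higher and 3 lower. Without Harmony correction none was called either, where 10 of 11242 genes were called higher and 12 lower. Nor was any called with only cells of 1000 or more genes and under 10% mitochondrial UMIs, where 61 of 11837 genes were called higher. With old mice alone Hoxb4 was called and neither Hoxb2 nor Hoxb5 was. With very old mice alone only Hoxb2 was called. Without the young male, without the young female, without the old male or with DESeq2 no member was called in MPP-like cells, and Hoxb5 was not called without any 1 mouse. In the same cells 6 of the 17 HSC markers were called higher in older mice and none lower (median log2 fold change 1.02, against -0.0025 for all genes tested), and their part in these differences was not tested. By middle age Hoxb2 was called (1.63, edgeR adjusted p = 0.0337), where 0.478% of genes were called higher.

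The size of the age difference was then compared between HSC-like and MPP-like cells. By the interaction test of edgeR no member differed between the classes after adjustment, where 3.33% of all genes were called in either direction. By edgeR 1 member, Hoxa9, had an unadjusted p under 0.05, with a change that was lower in HSC-like cells by -0.26 ± 0.12 (log2, SE, edgeR adjusted p = 0.285). DESeq2 called 0 members and found 0 at an unadjusted p under 0.05. For Hoxb5 the estimate was 0.24 ± 0.74, an SE larger than the estimate, so these libraries do not show whether the classes differed.

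In megakaryocyte-like cells (4039 cells) 3 of the 9 members tested were called higher in older mice, where 2.31% of all genes were. Hoxb5 was at 0.566 and 0.767 CPM in the young, 2.03 and 2.72 in the middle-aged, 3.69 and 2.22 in the old and 3.81 and 3.39 in the very old mice (2.25 ± 0.44, log2, SE, edgeR adjusted p = 0.00891). Hoxb2 was at 3.68 and 3.19 in the young, 5.65 and 5.19 in the middle-aged, 9.64 and 5.22 in the old and 8.89 and 6.92 in the very old mice (1.15 ± 0.24, adjusted p = 0.0145). Hoxa10 was at 5.95 and 5.62 in the young, 5.80 and 6.23 in the middle-aged, 10.9 and 8.62 in the old and 9.27 and 10.2 in the very old mice (0.76 ± 0.20, adjusted p = 0.0476). For each of these 3 genes no older mouse was as low as a young one, and for Hoxa10 the middle-aged mice lay close to the young ones. Hoxa10 was not called without a sex term, with old or very old mice alone, with only the groups compared or with shared barcodes left out. Of the fits that left out 1 mouse, only that without the old female called Hoxa10. Hoxb2 was not called without a sex term, with old mice alone or without the old male. HSC markers moved in these cells too, with 12 of 17 called higher, none lower and a median log2 fold change of 0.85 (-0.01 for all genes tested), and their part was not tested. Without the young male none of the 3 was called. Of the members tested in erythroid-like, monocyte-like, neutrophil-like, basophil/mast-like, granulocyte progenitor-like and dendritic-like cells (2 to 8 a class) none was called by edgeR in the main fit. Of all genes tested there, the share called in either direction was 0.121% in monocyte-like, 0.133% in basophil/mast-like, 0.0145% in granulocyte progenitor-like, 0.0096% in neutrophil-like and 0% in erythroid-like and dendritic-like cells. With other settings edgeR called Hoxb2 higher in erythroid-like cells (no filter, or very old mice alone) and in monocyte-like cells (no filter). The share of all genes called in those fits is not given here. At an unadjusted p under 0.05 the main fit found 3 members in monocyte-like, 1 in erythroid-like and 1 in neutrophil-like cells by edgeR. The share of all genes at such a p is not given for these classes. DESeq2 called no member in these 6 classes. The 3 calls in megakaryocyte-like cells were also lost with DESeq2.

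**Figure D5:**
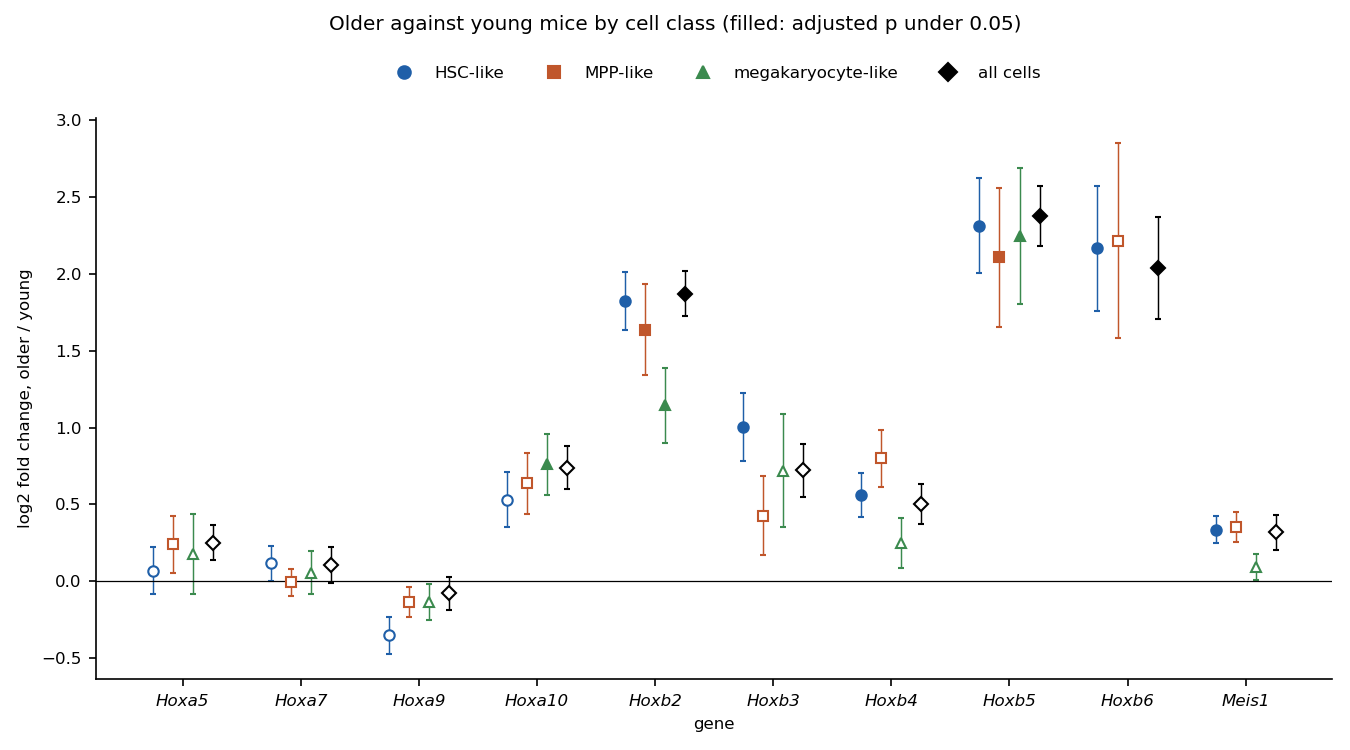
Log2 fold change between older and young mice (vertical axis, ± SE) of the 10 members (horizontal axis) in HSC-like, MPP-like and megakaryocyte-like cells and in all cells. Filled symbols passed an edgeR adjusted p of 0.05. Hoxb2 and Hoxb5 are filled in all 4, and the HoxA members are open except Hoxa10 in megakaryocyte-like cells.

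With all cells of a library summed, which needs no cell classes, 3 members were called higher in older mice, where 1.11% of 15348 genes were. Hoxb2 was at 0.978 and 0.913 CPM in the young, 2.94 and 2.85 in the middle-aged, 3.54 and 3.12 in the old and 3.45 and 3.67 in the very old mice. It rose by 1.87 ± 0.15 (log2, SE, edgeR adjusted p = 0.00412). Hoxb5 was at 0.299 and 0.220 in the young and 0.860 to 1.96 in the older mice (2.38 ± 0.19, adjusted p = 0.00412), and Hoxb6 at 0.145 and 0.147 in the young and 0.426 to 1.10 in the older mice (2.04 ± 0.33, adjusted p = 0.0407). Young and older mice did not overlap for these 3 genes. In such sums more HSC-like cells and more RNA of the gene per cell cannot be told apart, and the share of HSC-like cells was also higher in older mice. With age in weeks as the term none of the 3 was called, where 0 of 15348 genes were. Hoxb6 was not called without a sex term, with very old mice alone or with only the groups compared. Of the fits that left out 1 mouse, only that without the old female called Hoxb6. Without the young male, which leaves only the young female, few genes passed at all and no member was called.

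Males and females were compared over all ages in HSC-like cells. By edgeR 0 members were called, where 0.43% of all genes were called in either direction, and DESeq2 called 0 and found 0 at an unadjusted p under 0.05. At an unadjusted p under 0.05 edgeR found 5 members, all higher in males: Hoxb6 by 0.76, Hoxb2 by 0.40, Hoxa5 by 0.34, Hoxb4 by 0.33 and Meis1 by 0.17 on the log2 scale, with adjusted p-values from 0.244 to 0.403. With 4 males against 4 females these differences did not pass the correction. Of the 11631 genes tested, 1290 had an unadjusted edgeR p under 0.05 in this comparison.

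The other Hox genes were few in these cells. The files list 39 Hox genes, and the 9 members held 63992 of their 68216 UMIs, or 93.8%. Of the other 30 genes 11 had 50 or more UMIs over all libraries (Hoxa2, Hoxa3, Hoxa4, Hoxa6, Hoxb7, Hoxb8, Hoxb9, Hoxc4, Hoxc6, Hoxc8 and Hoxc9), 9 had 1 to 49 and 10 had none. Of the 298 UMIs of Hoxb8, 259 were in HSC-like cells, and of the 116 of Hoxb9, 105 were.

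In HSC-like cells 5 of these 30 genes were tested and 3 were called higher in older mice (6.78% of all genes tested), and the median log2 fold change of the 5 was 2.75. Hoxb8, which lies beyond Hoxb6 and Hoxb7 towards the 5′ end of the cluster, had 0 and 2 UMIs in the young, 40 and 22 in the middle-aged, 70 and 26 in the old and 61 and 38 in the very old mice. As a ratio of CPM older exceeded young mice 34.8-fold (95% counting interval 9.50 to 289, edgeR adjusted p = 0.000247). Hoxb9 had 1 and 0 UMIs in the young and 15 to 31 in each older mouse, a ratio of 31.7 (interval 5.55 to 1268, edgeR adjusted p = 0.00283). Hoxc6, of the HoxC cluster, had 1 and 3 UMIs in the young and 10 to 37 in each older mouse, a ratio of 7.40 (interval 2.78 to 27.8, edgeR adjusted p = 0.0131). Hoxb7 had too few counts to be tested: 0 UMIs in the young against 44 in the older mice, at least 5.23-fold higher against a floor of 3 UMIs over the young group, with 4.08 as the lower limit of the 95% counting interval. Hoxa3 (0.35, adjusted p = 0.347) and Hoxa6 (0.39, adjusted p = 0.507) of the HoxA cluster did not pass. Young HSC-like cells thus held 0 to 2 UMIs of Hoxb7, Hoxb8 and Hoxb9 per mouse.

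Of 10 non-coding and read-through genes of the HoxA and HoxB clusters, a list drawn up after its values were seen, 4 were tested in HSC-like cells and none was called by edgeR, while 2 had an unadjusted p under 0.05. So did 2848 of the 11631 genes tested there. Hoxb3os, which runs opposite Hoxb2 and Hoxb3, was at 7.39 and 8.34 CPM in the young and 7.78 to 17.7 in the older mice (0.88, adjusted p = 0.0856). Hoxb5os, opposite Hoxb5, was at 3.84 and 3.79 in the young and 4.33 to 7.63 in the older mice (0.86, adjusted p = 0.0926). Hoxb3os was called higher in MPP-like (1.77, edgeR adjusted p = 0.00123), megakaryocyte-like (1.61, adjusted p = 0.00569), monocyte-like (2.25, adjusted p = 0.0324) and all cells (1.66, adjusted p = 0.0122), and its reads cannot be told apart from those of Hoxb2 and Hoxb3 if strand was not used.

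Other TALE genes were also measured in HSC-like cells. Pbx3, the partner linked with Hoxa9 in leukaemia, was at 8.27 and 15.2 CPM in the young and 28.1 to 36.0 in the older mice (1.58 ± 0.21, log2, SE, edgeR adjusted p = 0.000869). Meis2, a paralogue of Meis1, had 2 UMIs in each young mouse and 6 to 50 in each older mouse, a ratio of 9.99 (interval 3.79 to 37.3, edgeR adjusted p = 0.0102). The 2 genes were called higher in older mice, without overlap with the young mice, a pattern shown by 10.7% of all genes tested. Tgif1, Tgif2 and Meis3 did not pass.

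Of 23 regulators of Hox transcription 20 were tested, 1 was called higher and 2 lower (6.78% and 2.98% of all genes tested), with a median log2 fold change of -0.09. Mllt3, a partner of the Dot1l complex that is also an HSC marker, was at 69.7 and 70.5 CPM in the young and 108 to 217 in the older mice (1.30, edgeR adjusted p = 0.000378). Ezh2, the histone H3 lysine methyltransferase of Polycomb repressive complexes, fell by 0.80 (log2, adjusted p = 0.0134), and Kdm2b, which recruits a Polycomb complex to unmethylated CpG islands, fell by 0.52 (adjusted p = 0.0165). For all 3 genes young and older mice did not overlap. Of all genes tested, 10.7% had all 4 older mice above both young ones and 26.6% had them below. Kmt2a, the methyltransferase that maintains Hox transcription, differed by 0.01 ± 0.12 (adjusted p = 0.979).

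Of 13 genes known as targets of Hoxa9 or Meis1 all were tested, 1 was called higher and 3 lower (again 6.78% and 2.98% of all genes), with a median log2 fold change of 0.06. Flt3, a cytokine receptor, fell by 1.93, Cd34, a sialomucin, fell by 1.14 and Sox4, a transcription factor, fell by 0.74 (log2, edgeR adjusted p-values of 0.00015, 0.00292 and 0.00664). These 3 genes are also among the MPP markers given above. Id2, an inhibitor of basic helix-loop-helix factors, rose by 1.82 (adjusted p = 0.00182), from 5.91 and 4.30 CPM in the young to 11.3 to 28.9 in the older mice. Myb, Lmo2, Erg, Bcl2, Hif1a, Ccnd3, Trib2, Pf4 and Kit did not pass.

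Across the 9 named classes and 8 mice (72 points), genes were ranked by the Pearson correlation of their log2 level with each member, as a description. The points share libraries and class structure. Hoxb5 was most like Nbea (0.95), Runx1t1 (0.95) and Ndn (0.94), and Hoxb6 was most like Runx1t1 (0.93), Jam3 (0.93) and Hoxb5 itself (0.92). Hoxb2 was most like Nbea, Hoxb3os and Gstt1 (each 0.89), and Hoxb3 was most like Mir155hg (0.92), Hdac11 (0.90) and Emcn (0.89). Hoxb4 had the weakest likeness of the 10, to Zfp945 (0.88), Ppp2r3a (0.83) and Eya1 (0.81). Hoxa9 was most like Sox4 (0.91), Rai14 (0.90) and Sirt3 (0.88), and Hoxa7 was most like Zfp608 (0.89), Rbpms (0.88) and Nfic (0.87). Hoxa5 was most like Gm19590 (0.90), Hlf (0.89) and Itm2a (0.86), and Hoxa10 was most like F11r (0.97), Samd12 (0.96) and Gata3 (0.95). Meis1 was most like Ctla2a (0.97), Angpt1 (0.96) and Csgalnact1 (0.96).

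In cluster 18, where Hoxa9 was highest, its level was 145 and 136 CPM in the young male and female, 91.4 and 94.0 in the middle-aged, 106 and 112 in the old and 90.6 and 84.3 in the very old mice. All 6 middle-aged and older mice were below both young mice there, as in HSC-like cells. The share of all genes with such a pattern was not computed in cluster 18. In HSC-like cells 26.6% of genes had all 4 older mice below both young ones. No test was run in this unnamed cluster.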

How the data were processed

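Lineage-c-Kit+ bone marrow cells of 8 mice were captured on the Chromium 3′ platform, 1 mouse per library. The deposited files hold raw UMI counts per gene and cell, made by the authors with Cell Ranger (the matrix headers name version 6.0.0) on mm10. The members and all lists were chosen with earlier results of these data known.

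All 59136 cells with 200 or more genes were scaled to 10000 counts and log-transformed, and 2000 variable genes, 30 principal components, Harmony (θ = 1) and Leiden clustering (resolution 0.8) were used (Python 3.11.15, scanpy 1.11.5), without Hox, Meis, Pbx, Pknox or sex-linked genes. A cluster took a name only from 3 or more detected markers among its leading 50 genes. No other class could have more markers among the leading 10. Scrublet called under 0.5% of cells in 4 libraries, so doublets were kept, and cells with the highest scores were left out in an alternative. Cells of a class were summed per mouse, and at least 20 cells per mouse were needed.

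Sums were tested with edgeR 4.0.16 (R 4.3.3; TMM, filterByExpr, quasi-likelihood, Benjamini-Hochberg over all genes tested, threshold 0.05), with age group and sex as terms over 8 mice, which leaves 3 residual degrees of freedom. The design allows for 2 young mice only. The p-values rest on a spread pooled over the 8 mice within age groups and moderated towards that of all genes tested. They do not measure the spread between the young mice alone. SE is the absolute log2 fold change divided by the square root of F. The difference between classes was tested with mouse as a block. DESeq2 1.42.0 was an alternative. On counts simulated for the HSC-like comparison over 11447 genes, 86 of 109 genes changed by 1 on the log2 scale and 88 of 90 changed by 2 were recovered, with 13 false calls.

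Genes named in the text are the 10 members, other Hox genes with 50 or more UMIs, up to 4 called genes a list with the largest change, and the 3 genes most like each member. Genes that did not pass, genes of the list drawn up later, Hoxb7, Kmt2a and cluster-leading genes were named outside that rule after their values were seen. A gene that the rule would name is not reported here. Promoter windows and motifs came from RefSeq (GRCm38.p6). Other settings were changed 1 at a time, except that the sets by HSC markers or Vwf also left out cells under 4500 UMIs. The sets with or without a Vwf UMI and the 2 clusters at resolution 1.6, 4 settings, were added after seeing the data.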

Additional observations from a re-analysis of the deposited data

Results flagged for a closer look

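In basophil/mast-like cells, Meis1 was at 70.5 CPM in the very old male, apart from the remaining 3 of the 4 older mice by more than Dixon's 95% limit for 4 samples. In all, 102 groups of 4 older mice were examined in this way, and chance flags about 1 in 20.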

How the results depend on the processing

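The rise of Hoxb2 and Hoxb5 in older HSC-like cells kept its direction in 24 of 24 other fits and passed the threshold in 23. The exception was clustering without Harmony correction, where few young cells were HSC-like and 0 members were called. Members called in HSC-like cells, 6 as reported, numbered 3 with DESeq2, 2 in the larger cluster at resolution 1.6, and 2 to 7 when 1 mouse was left out: 2 without the young male, and 3 without the old male, the old female or the very old male. For middle-aged against young mice, 2 as reported, they numbered 0 without a sex term, 0 with only the groups compared, 0 without Harmony correction, and 0 to 3 when 1 mouse was left out (0 without the young male, 1 without the middle-aged male).

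In MPP-like cells, 2 as reported, they numbered 4 with no filter, 1 without a sex term, 1 with old mice alone, 1 with very old mice alone, 1 at resolution 1.6, 1 with doublets removed, 0 with DESeq2, 0 with age in weeks, 0 without Harmony correction, 0 with cells of 1000 or more genes and under 10% mitochondrial UMIs, and 0 to 3 when 1 mouse was left out (0 without the young male, the young female or the old male, 1 without the very old female). In all cells, 3 as reported, they numbered 5 with DESeq2, 0 with age in weeks, and 0 to 3 when 1 mouse was left out (0 without the young male). In the other named classes, 3 as reported, they numbered 0 with DESeq2, 5 with no filter, 1 without a sex term, 1 with old mice alone, and 0 to 3 when 1 mouse was left out (0 without the young male, 1 without the old male). In MPP-like cells the 1 member called with old mice alone was Hoxb4. Without a sex term, with very old mice alone, at resolution 1.6 or with doublets removed it was Hoxb2. The cause of these changes was not tested.

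Genes called in HSC-like cells, 1136 as reported, numbered 496 with DESeq2, 1807 with no filter, 699 without a sex term, 607 with age in weeks, 150 without Harmony correction, 740 with only cells of 4500 or more UMIs and no Vwf UMI, 292 in the larger cluster at resolution 1.6, and 126 to 1626 when 1 mouse was left out: 126 without the young male, 437 without the very old male, 442 without the old male and 703 without the young female. Over all these settings, 39 calls of a member were lost with the sign kept, 1 was lost with it reversed (Hoxb4 without Harmony correction) and 7 were gained. Signs reversed for Hoxa5 (-0.033 with very old mice alone, -0.13 in the larger cluster at resolution 1.6, -0.065 to 0.119 when 1 mouse was left out, below 0 without the very old male), Hoxa7 (-0.15 without Harmony correction) and Hoxb4 (-0.023 without Harmony correction).

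Without Harmony correction the mean HSC-like levels were 33.9 for Hoxa10, 28.2 for Hoxb2, 45.7 for Hoxb4, 19.8 for Hoxb5, 8.59 for Hoxb6 and 284 for Meis1. Without thinning, the shares of HSC-like cells with a UMI were 16.1% for Hoxa5, 36.8% for Hoxa7, 45.4% for Hoxa9, 19.4% for Hoxa10, 13.3% for Hoxb2, 8.90% for Hoxb3, 25.3% for Hoxb4, 8.66% for Hoxb5 and 82.3% for Meis1.

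No paired analysis was possible because the labels give no replicate numbers that link mice of different ages. Sex was a term of the fit, and mouse was the block only where classes of the same mice were compared. Not run were neutrophil-like cells without Harmony correction, granulocyte progenitor-like cells under the stricter cell filter and cells with a Vwf UMI, each with too few cells in 1 or more mice. Depth limits Hoxb5 and Hoxb6, which rest on 24 and 12 UMIs over the young HSC-like cells.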
